A study of Mus musculus with 32 samples.

Results

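The transcripts described here are those that stood high or low in the m6A immunoprecipitate (IP) over the input RNA of the same liver, in 4 hepatectomised mice with a floxed, undeleted Mettl14 gene. Genes were kept where their mean input level over these 4 animals was at least 50 counts scaled to the library total (CPM, the count divided by all counts of the library, times 1000000), and 2864 of the 55421 genes of the count table met this. Of these members 2759 could be named and 2709 are protein-coding. They held 89.0 to 89.8% of the counts of the 4 inputs and 83.2 to 85.8% of those of the 4 IP libraries.

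The series compares 16 mice in 4 groups of 4: hepatectomised flox, sham flox, hepatectomised Mettl14 knockout (KO) and sham KO. The hepatectomised flox animals were 72 or 73 days old (replicates 3 and 4, and replicates 1 and 2), the hepatectomised KO and sham KO animals 72 or 73 days, and the sham flox animals 71 to 77 days. Flox animals are controls that carry the conditional allele. What deletes it in the KO animals, and in which cells, is not given in the sources used here. Each liver gave 1 input library and 1 IP library, so the replicates are separate animals. The RNA of the IP library was broken into short fragments before it met the anti-m6A antibody, and its library was built with a NEBNext Ultra kit, while the input went through a TruSeq stranded mRNA kit. A difference between IP and input is therefore a difference between both procedures, and the antibody and the kit cannot be told apart.

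N6-methyladenosine (m6A) is the most common internal modification of mRNA. A nuclear complex of METTL3 and METTL14 places it on adenosines in a short consensus sequence, mostly around stop codons, in 3' untranslated regions and in long internal exons. Reader proteins of the YTH family bind it and alter the splicing, translation or decay of the transcript. In the liver the mark is known to lie on many mRNAs of lipid and glucose metabolism, and hepatocytes that re-enter the cell cycle after loss of tissue must keep making plasma proteins while they do so.

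Total counts were 11238977 to 12132882 in the 4 inputs and 14542549 to 17711985 in the 4 IP libraries. An input held 4462 to 4950 genes with at least 10 counts and an IP library 10118 to 11796. Mettl14 had a count of 0 in all 4 inputs and counts of 33, 0, 22 and 9 in the IP libraries, so its level could not be used to check the genotype. All 6 hepatocyte markers (Alb, Apoa1, Ttr, Serpina1a, Cps1 and Hnf4a) were members, with a summed level of 39315 to 43574 CPM in the inputs. Krt19, Krt7 and Epcam (bile duct), Adgre1, Cd68 and Marco (macrophages), and all 4 lymphocyte and all 4 neutrophil markers were at 0 in every input. None of the bile duct or macrophage markers was at 0 in all 4 IP libraries, where their sums were 8.98 to 187 and 269 to 376 CPM, so a 0 in the inputs is not read here as absence of the cells. In bulk tissue fewer cells of a type and less RNA per cell cannot be told apart.

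Levels below are CPM after scaling with TMM factors, and log2 IP/input is the edgeR estimate with the animal as a block unless a value is given for each animal. Of 2860 members tested, 94 were called high in IP (3.29%) and 14 low (0.49%) at an adjusted p under 0.05. Over all 8951 genes tested the shares were 13.4% and 0.156%. The genes outside the members are by the rule the ones that were scarce in the inputs. At least 2-fold changes were 48 of the 94 and 9 of the 14 (1.68% and 0.315% of members, against 12.9% and 0.101% of all genes tested). The IP was above the input in all 4 animals for 75 of the 94, and below it in all 4 for 12 of the 14. Among all members 340 were higher and 118 lower in 4 of 4 animals.

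These counts rest on how the spread between animals is estimated and on which genes are adjusted together. Adjustment was over all 8951 genes tested, of which 1197 were called high, 94 of them members. In edgeR, unadjusted p values from 0.00019 (Trf) to 0.0042 (Klhl9) share an adjusted p of 0.036. Members called at that value owe it in part or wholly to the genes outside the members. The largest unadjusted p of a called member in this edgeR fit was 0.0068, which would not pass over the 2860 members alone. An adjustment of the same p values over the members alone was not made. The fit over all genes shares a single spread trend between them (infinite prior degrees of freedom). Fitted on the members alone (2.93 prior degrees of freedom), edgeR called 0 high and 0 low (smallest adjusted p = 0.376, with 154 members at an unadjusted p under 0.05). In the fit over all genes 197 members had an unadjusted p under 0.05 on the high side and 19 on the low side. Limma on the 4 ratios of each member called 29 high and 23 low, of which 29 and 11 are among the 94 and the 14, and DESeq2 called 324 and 115. With 4 animals an exact 2-sided sign-flip permutation test of a single gene cannot go below 0.13, so the value in each animal is given beside each call.

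The scaling matters as much. Without TMM factors the median change of log2 IP/input over the members was -0.34, 28 of the 94 high calls and 14 of the 14 low calls were kept, and 34 members in all were called low. A log2 value under about that size is above 0 or below it by the choice of scaling. The input level matters too. In members at 50 to 100 CPM the median coefficient of variation between the 4 inputs was 108%, against 37.9% between the 4 IP libraries, and 949 of these 1435 members had at least 1 input at 0. Their median log2 IP/input was 1.42 in the fit and -0.14 as the ratio of the group means, so the direction of a typical scarce member depended on how the animals were averaged. In the 110 members at 1000 CPM or more the coefficients were 17.6% and 18.5%, both medians were close (0.29 and 0.31), and 38 were called high and 7 low. At the limit of 50 CPM, 228 genes at 50 to 55 CPM had a median of 2.52 (ratio of means -0.44) and 244 genes at 45 to 50 CPM a median of 2.34 (-0.15).

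**Figure D1:**
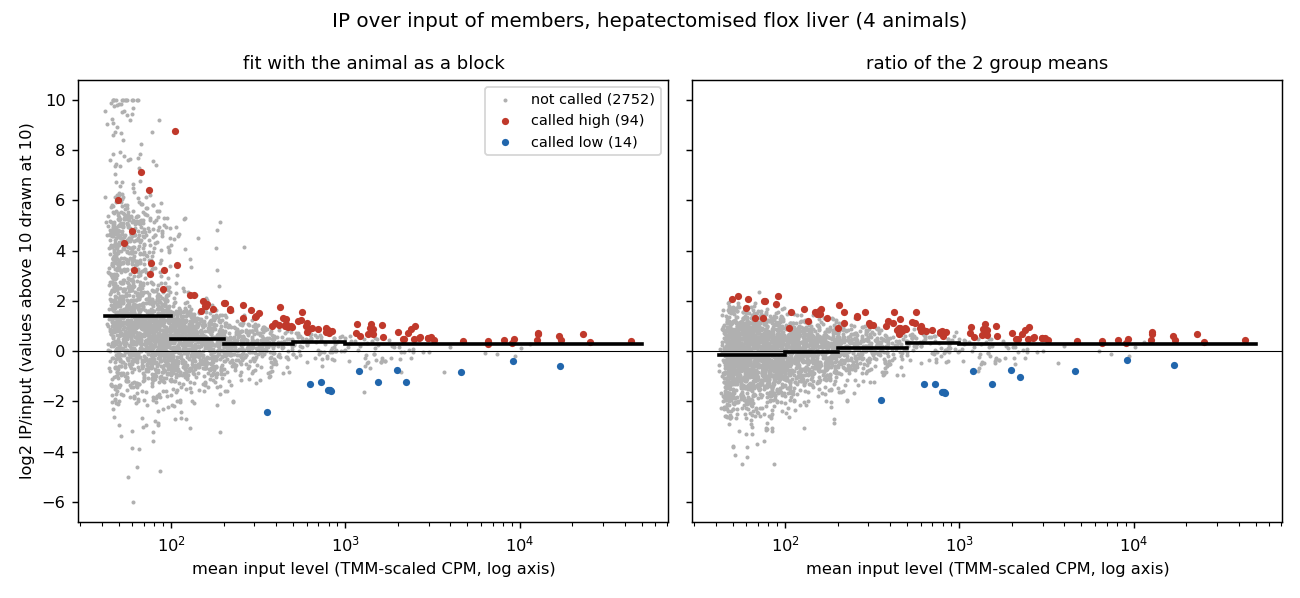
Log2 IP/input of each fitted member against its mean input level, on the left from edgeR with the animals as blocks and on the right as the ratio of the 2 group means; red points are the 94 members called high, blue points the 14 called low, and black bars the median of the members at 50 to 100, 100 to 200, 200 to 500, 500 to 1000 and at least 1000 CPM. The left medians lie between 0.27 and 1.42 and the right ones between -0.14 and 0.33, and they meet only at high input levels.

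A core of 11 members kept its call with any 1 of the 4 animals left out: Apob, Apoa1, Apoa5, Apoa4, Serpina3k, Fga, mt-Nd2, mt-Nd4, Errfi1 and Acsl1 on the high side and Hpx on the low side. Of the other 84 high calls 49 were kept in none of the 4 fits without 1 animal, and of the other 13 low calls 4 were kept in none. In these edgeR fits many genes share an adjusted p. Klhl9 and Mat1a both had 0.15, 0.15, 0.17 and 0.13 without replicates 1 to 4. A call can end while the log2 value hardly changes, as for Mat1a (-0.86 to -0.71, and -0.79 with all 4). The end of a call is therefore not by itself a sign that the gene depends on that animal.

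**Figure D2:**
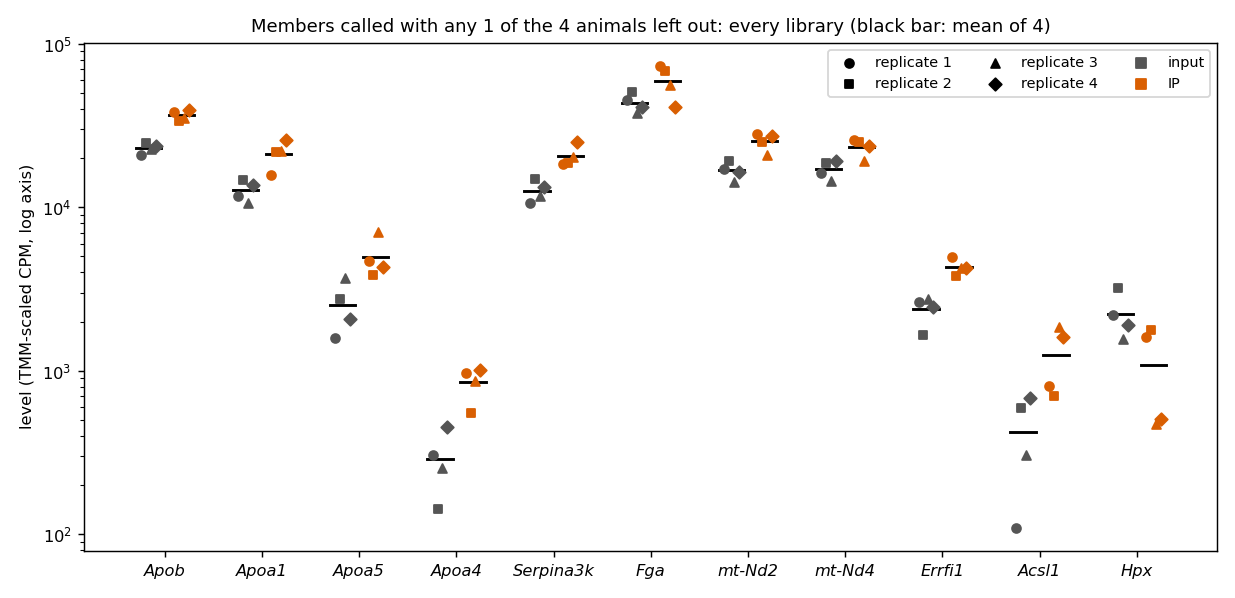
Level of the 11 members called with any 1 animal left out, in TMM-scaled CPM on a log axis, in the 4 inputs (grey) and the 4 IP libraries (orange) of hepatectomised flox animals; symbols mark the replicate and black bars the mean. The IP and input points of Apob, Apoa1, Apoa5, Apoa4, Serpina3k, mt-Nd2, mt-Nd4, Errfi1 and Acsl1 do not overlap, and those of Hpx overlap, with the IP points of replicates 1 and 2 above those of replicates 3 and 4.

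Some apolipoprotein mRNAs stood high in IP. Of 16 genes of apolipoproteins and lipoprotein assembly among the members, 6 were called high and 0 low (7 and 0 at an unadjusted p under 0.05; DESeq2 5 and 0; without TMM factors 4 and 0), where 94 and 14 of all 2860 were. Calls were more frequent at higher input levels: 74 high and 14 low of the 618 members at 200 CPM or more. The median input of the 16 was 546 CPM. List counts below are to be read against the share at a like level. The median log2 IP/input of the 16 was 0.54, below the 0.71 of all members, and 0.48 over the 11 of them at 200 CPM or more, where all members of that level had 0.29. Summed over the 16 genes the level was 47868, 57479.8, 49323 and 56442 CPM in the inputs of replicates 1 to 4 and 77212, 79396, 86797 and 88402 in their IP libraries. This is a log2 ratio of 0.65 ± 0.14 (mean and SD, n = 4), and 0.31 without TMM factors.

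Apob (ENSMUSG00000020609, chromosome 12, 7977648 to 8016835, plus strand; positions are those of the count table, whose genome build is not given in the sources used here) encodes the structural protein of very low density lipoprotein. It was at 20993, 24711, 22764 and 23588 CPM in the inputs and 38161, 33523, 35333 and 39634 in the IP libraries. All 4 IP values lie above all 4 inputs (log2 0.67, SE 0.06, adjusted p = 1.3e-21; without TMM factors 0.33, adjusted p = 4.4e-07). Apoa1 (ENSMUSG00000032083, chromosome 9, 46228580 to 46230466, plus strand), the main protein of high density lipoprotein, was at 11752, 14613, 10692 and 13629 CPM in the inputs and 15701, 21675, 22019.6 and 25703 in IP. These groups do not overlap either (log2 0.74, SE 0.08, adjusted p = 1.5e-16; without TMM factors 0.39, adjusted p = 4e-05). Apoa5 (ENSMUSG00000032079, chromosome 9, 46268633 to 46271919, plus strand), which activates lipoprotein lipase and so lowers plasma triglyceride, was at 1575, 2758, 3667 and 2077 and 4723, 3826, 7014 and 4287 CPM. Its lowest IP value stands just above its highest input (log2 1.01, SE 0.14, adjusted p = 5.3e-09; 0.66, adjusted p = 0.00015 without TMM factors).

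Apoa4 (ENSMUSG00000032080, chromosome 9, 46240696 to 46243459, plus strand), an apolipoprotein whose hepatic expression rises with triglyceride load, was at 303, 142, 252 and 449.6 CPM in the inputs and 974, 549, 871 and 1006 in IP. The groups are apart in every animal, although the inputs themselves spread widely (log2 1.65, SE 0.36, adjusted p = 0.0017). Apoe, the ligand of remnant receptors, was at 8876, 10093, 7953 and 9940.2 and 10451, 12827, 15842 and 12451 CPM, apart by less than the others (log2 0.47, SE 0.09, adjusted p = 0.00022). Its call ended without replicate 3 (0.31, adjusted p = 0.17) and without TMM factors (0.13, adjusted p = 0.29).

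Protease inhibitors of the serpin a1 and a3 clusters are made by hepatocytes and secreted, and 3 of their 6 members were called high and 0 low (3 and 0 at an unadjusted p under 0.05; DESeq2 1 and 0; without TMM factors 1 and 0). Their median input was 3545 CPM, and of all 110 members at 1000 CPM or more 38 were called high and 7 low. Reads of these near-identical genes can be split between them, so the single genes are uncertain. Serpina3k (ENSMUSG00000058207, chromosome 12, 104338486 to 104346144, plus strand), a kallikrein-binding protein, was at 10669, 14901, 11697 and 13320.5 CPM in the inputs and 18331, 18579, 20394 and 25060.0 in IP. Every IP library is above every input (log2 0.70, SE 0.08, adjusted p = 6.6e-15; 0.36, adjusted p = 6.5e-05 without TMM factors). Serpina1d had 1.12, 0.13, 1.01 and 0.56 as log2 IP/input in the 4 animals (0.71, adjusted p = 0.036), and its call ended without replicate 1, 3 or 4 (0.58, 0.62 and 0.79, adjusted p = 0.15, 0.17 and 0.13). Serpina3n was at 0.57, 0.50, 0.18 and -0.06 (0.30, adjusted p = 0.049), below 0 without TMM factors (-0.05, adjusted p = 0.84), and its call ended whichever of the 4 animals was left out (0.20 to 0.44, adjusted p = 0.11 to 0.45). Serpina1e was not called (0.19, adjusted p = 0.36).

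Of the 3 genes of fibrinogen, the precursor of the clot and the subject of the study's title, 1 was called. They lie side by side on chromosome 3. Fga (ENSMUSG00000028001, chromosome 3, 83026076 to 83033627, plus strand) was at 45204, 50430.1, 37744 and 41277 CPM in the inputs and 73371, 68281, 55728 and 40870.5 in IP. IP was higher in replicates 1 to 3 and a little lower in replicate 4 (log2 0.42, SE 0.06, adjusted p = 4.8e-06), and without TMM factors the value was 0.08, adjusted p = 0.28. Fgb had log2 values of 0.34, 0.39, 0.00 and -0.14 in the 4 animals (0.15, adjusted p = 0.3; means 10142 ± 865 and 11474 ± 2945 CPM, SD, n = 4), and Fgg 0.31, 0.32, -0.28 and -0.65 (-0.07, adjusted p = 0.75; 6339 ± 716 and 6286 ± 2202 CPM). Neither passed the test. Without TMM factors Fgb was below 0 without a call (-0.20, adjusted p = 0.084), and Fgg was called low (-0.42, adjusted p = 0.013), as it was in DESeq2 (-0.42, adjusted p = 0.023). In Fga, Fgb and Fgg alike replicate 4 had the lowest ratio and replicates 1 and 2 were above 0.

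Of 25 fibrinogen and coagulation genes, all members, 3 were called high and 0 low (5 and 0 at an unadjusted p under 0.05; DESeq2 1 and 2). Their median input was 398 CPM, and of all 618 members at 200 CPM or more 74 were called high, a similar share. Besides Fga they were Hrg, the histidine-rich glycoprotein that binds heparin and plasminogen (0.78, 0.25, 0.79 and 0.43; 0.56, adjusted p = 0.036), and Serpinf2, which encodes alpha-2-antiplasmin (0.37, 0.38, 1.01 and 1.77; 0.88, adjusted p = 0.036). The call of Hrg ended whichever of the 4 animals was left out (0.50 to 0.64, adjusted p = 0.061 to 0.17) and that of Serpinf2 whichever of the 4 animals was left out (0.62 to 1.07, adjusted p = 0.1 to 0.17). Without TMM factors 0 of the 25 were called high and 1 low, and their median went from 0.31 to -0.03.

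Positive acute phase proteins went both ways: of 21 members 4 were called high and 1 low (4 and 3 at an unadjusted p under 0.05; DESeq2 3 and 5; without TMM factors 1 and 5), with a median of -0.21. Their median input was 1550 CPM, and of all 110 members at 1000 CPM or more 38 were called high and 7 low. Saa4, the constitutive serum amyloid A, was at 0.45, 0.90, 0.71 and 0.87 in the 4 animals (0.73, adjusted p = 0.036) and Lrg1, a leucine-rich glycoprotein of inflammation, at 0.71, 0.50, 0.63 and 0.22 (0.51, adjusted p = 0.036). Both were above 0 in 4 of 4 animals. The call of Saa4 ended whichever of the 4 animals was left out (0.65 to 0.84, adjusted p = 0.13 to 0.17) and that of Lrg1 whichever of the 4 animals was left out (0.46 to 0.64, adjusted p = 0.052 to 0.17). The low member was Hpx (ENSMUSG00000030895, chromosome 7, 105591613 to 105600137, minus strand), hemopexin, the plasma scavenger of free heme. It was at 2195, 3190.0, 1569 and 1899.7 CPM in the inputs and 1605, 1769, 473 and 508 in IP. All 4 ratios are below 0 (log2 -1.23, SE 0.21, adjusted p = 3.4e-06; -1.58, adjusted p = 5.7e-13 without TMM factors), and the IP levels of replicates 1 and 2 stand far above those of replicates 3 and 4. Replicates 1 and 2 are the animals of 73 days and replicates 3 and 4 those of 72 days. The summed IP level of the list was split the same way, at 79535, 82611, 57351 and 52328 CPM against 52234, 63828, 54379 and 58118 in the inputs. Not every member followed the sum: the IP levels of Serpina3k and Saa4 were highest in replicate 4. The part of age or of anything else that separates these pairs of animals was not tested.

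Of 20 receptors and growth signals 4 were called high and 0 low (7 and 0 at an unadjusted p under 0.05; DESeq2 3 and 0; without TMM factors 2 and 0). Their median input was 226 CPM, and of all 618 members at 200 CPM or more 74 were called high and 14 low. The median log2 IP/input of the 20 was 0.92, where that of all members was 0.71. Over the 11 of them at 200 CPM or more it was 0.50, where all members of that level had 0.29. Errfi1 (ENSMUSG00000028967, chromosome 4, 150853919 to 150868892, plus strand) encodes a feedback inhibitor of the epidermal growth factor receptor. It was at 2651, 1656, 2751 and 2464 CPM in the inputs and 4979.9, 3791, 4245 and 4251 in IP. The lowest IP library was well above the highest input (log2 0.88, SE 0.15, adjusted p = 3.4e-06; 0.53, adjusted p = 0.023 without TMM factors). Egfr, the receptor that Errfi1 restrains, was at 1756, 2836, 2213 and 3034 and 4330.3, 3270.5, 2592 and 3652 CPM. It was higher in IP in 4 of 4 animals with overlapping groups (log2 0.50, SE 0.16, adjusted p = 0.036), and replicate 1 had by far the highest ratio. Its call ended whichever of the 4 animals was left out (0.25 to 0.60, adjusted p = 0.13 to 0.57) and without TMM factors (0.15, adjusted p = 0.55).

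Ghr, the growth hormone receptor, was at 38.7, 299.8, 459 and 425 CPM in the inputs and 601, 504, 648 and 779 in IP. All IP values exceed all inputs, and the low input of replicate 1 sets the largest ratio (log2 1.40, SE 0.43, adjusted p = 0.036). Its call ended whichever of the 4 animals was left out (0.72 to 1.78, adjusted p = 0.089 to 0.32). Lifr, the receptor of leukaemia inhibitory factor, had inputs of 209, 0.244, 18.1 and 78.2 CPM against 354, 179.8, 317 and 369 in IP (log2 3.53, SE 1.0, adjusted p = 0.036). The IP libraries were alike and the inputs were not, and the call ended without replicate 2, 3 or 4 (2.34, 3.13 and 4.38, adjusted p = 0.15, 0.17 and 0.13).

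Hepatocyte transcription factors had a median input of 162 CPM, where all members had 99.8, and 4 of 22 were called high and 0 low (6 and 0 at an unadjusted p under 0.05; DESeq2 3 and 0; without TMM factors 3 and 0). Their median log2 IP/input was 1.39, and 0.71 over the 9 of them at 200 CPM or more, where all members of that level had 0.29. Hnf4a, the nuclear receptor that maintains hepatocyte identity, was at 569.9, 391, 1022 and 410.1 CPM in the inputs and 1029, 1211, 1354 and 1227 in IP. Only the input of replicate 3 came near the IP values (log2 1.12, SE 0.28, adjusted p = 0.011). Its call ended without replicate 2 or 4 (0.92 and 0.99, adjusted p = 0.15 and 0.13). Cebpa, a factor that restrains hepatocyte division, was at 334, 633, 519 and 335 and 989.8, 712, 1367 and 1354 CPM, with every IP library above every input (log2 1.30, SE 0.30, adjusted p = 0.0052). Its call ended without replicate 1, 3 or 4 (1.21, 1.27 and 1.08, adjusted p = 0.071, 0.13 and 0.13).

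Ppara, the nuclear receptor that switches on fatty acid oxidation in fasting, was at 84.8, 216, 259.7 and 62.1 CPM in the inputs and 481, 331, 637 and 441 in IP. The groups do not overlap (log2 1.81, SE 0.55, adjusted p = 0.036; 1.47, adjusted p = 0.06 without TMM factors), and the call ended without replicate 1, 3 or 4 (1.58, 2.02 and 1.49, adjusted p = 0.15, 0.17 and 0.13). Onecut2, a factor of liver development, was at 1.11, 4.44, 0.42 and 0.70 as log2 IP/input in the 4 animals (1.51, adjusted p = 0.036). Replicate 2, whose input was low, gave the largest of these, and the call ended without replicate 1, 2 or 4 (1.71, 0.72 and 1.89, adjusted p = 0.15, 0.3 and 0.055).

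Of 32 genes of fatty acid oxidation and PPAR targets 6 were called high and 0 low (9 and 0 at an unadjusted p under 0.05; DESeq2 4 and 3; without TMM factors 2 and 1). Their median input was 124 CPM, and of all 811 members at 100 to 200 CPM 12 were called high and 0 low. Acsl1 (ENSMUSG00000018796, chromosome 8, 46471037 to 46536051, plus strand), on the list of fatty acid and triglyceride synthesis, activates long-chain fatty acids to their coenzyme A esters. It was at 109, 590.2, 305 and 679 CPM in the inputs and 806, 702, 1859 and 1609.8 in IP. The lowest IP library lies just above the highest input (log2 1.76, SE 0.30, adjusted p = 5e-06; 1.41, adjusted p = 0.00087 without TMM factors). Acsl1 was the 1 called gene of the 21 on its list, and Scd1, the stearoyl-CoA desaturase, was not called (0.15, -0.25, 0.98 and 1.53 in the 4 animals; 0.60, adjusted p = 0.069).

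Bdh1, which makes the ketone body beta-hydroxybutyrate, had inputs of 275, 147, 3.87 and 4.69 CPM and IP levels of 295, 237, 418 and 333. The log2 ratios were 0.10, 0.68, 6.43 and 5.88, larger in replicates 3 and 4 than in replicates 1 and 2 (log2 3.41, SE 1.04, adjusted p = 0.036), and the call ended without replicate 3 or 4 (1.83 and 1.90, adjusted p = 0.19 and 0.16). Hadh, a dehydrogenase of short-chain beta-oxidation, had inputs of 0.0, 1.3, 417 and 0.0769 CPM and IP levels of 154, 212, 157 and 269. It was lower in IP in the 1 animal whose input held most of its reads (log2 8.77, SE 1.93, adjusted p = 0.0021), so this largest of all called values rests on inputs near 0. A count of 3 in an input is 0.247 to 0.267 CPM. The call ended without replicate 1, 2 or 4 (7.01, 10.02 and 7.15, adjusted p = 0.15, 0.15 and 0.13). Cpt1a, the carnitine palmitoyltransferase that admits fatty acids to mitochondria, was at 0.98, 2.26, 1.82 and 0.35 in the 4 animals (1.36, adjusted p = 0.036), and its call ended whichever of the 4 animals was left out (1.02 to 1.72, adjusted p = 0.085 to 0.17).

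Among 24 genes of gluconeogenesis, glycolysis and glycogen 3 were called high and 0 low (4 and 0 at an unadjusted p under 0.05; DESeq2 2 and 1; without TMM factors 1 and 0). Their median input was 203 CPM, and of all 618 members at 200 CPM or more 74 were called high and 14 low. G6pc, the glucose-6-phosphatase that releases free glucose, was at 117, 162, 375 and 161 CPM in the inputs and 624, 475, 878 and 915 in IP. All 4 IP values lie above all inputs (log2 1.93, SE 0.41, adjusted p = 0.0012; 1.58, adjusted p = 0.033 without TMM factors), and the call ended without replicate 4 (1.76, adjusted p = 0.057). Pck1, the cytosolic phosphoenolpyruvate carboxykinase, was at 0.09, 0.31, 1.20 and 0.68 in the 4 animals (0.57, adjusted p = 0.036). Its call ended whichever of the 4 animals was left out (0.37 to 0.74, adjusted p = 0.12 to 0.46), and it missed the threshold without TMM factors (0.22, adjusted p = 0.42).

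Further genes with the largest values among called members that had at least 10 counts in each library were of mixed function. Mettl7b, a membrane methyltransferase of lipid droplets and endoplasmic reticulum, was at 644, 770.4, 291 and 553 CPM in the inputs and 1865, 951, 2126 and 1639 in IP. It was higher in IP in each animal, least in replicate 2 (log2 1.57, SE 0.26, adjusted p = 1.8e-06), and its call ended without replicate 3 (1.15, adjusted p = 0.072). Crebbp, a histone acetyltransferase, had log2 values of 4.50, 1.29, 0.83 and 3.26 (2.48, adjusted p = 0.036), and its call ended whichever of the 4 animals was left out (1.80 to 3.10, adjusted p = 0.13 to 0.17). Zfp36, which encodes tristetraprolin, a protein that hastens decay of AU-rich mRNAs, had 3.27, 0.65, 3.37 and 0.15 (1.88, adjusted p = 0.036). Its IP levels were 1143, 346, 245 and 310.3 CPM, with replicate 1 far above the rest, and the call ended without replicate 1 or 3 (1.35 and 1.30, adjusted p = 0.29 and 0.17). Hs3st3b1, a heparan sulfate sulfotransferase, had 0.88, 0.74, 1.61 and 4.39 (1.80, adjusted p = 0.036). Sntb1, a syntrophin of the dystrophin complex, had 1.67, 1.91, 2.03 and 0.99 (1.66, adjusted p = 0.02), Pnisr, a nuclear protein rich in serine and arginine, 1.14, 1.30, 4.33 and 0.41 (1.69, adjusted p = 0.036), and Klhl9, a substrate adaptor of a ubiquitin ligase, 2.13, 0.65, 1.72 and 1.88 (1.61, adjusted p = 0.036). The calls of Hs3st3b1, Pnisr and Klhl9 ended whichever of the 4 animals was left out, and that of Sntb1 without replicate 2, 3 or 4 (1.54, 1.54 and 1.91, adjusted p = 0.097, 0.17 and 0.055).

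Mitochondrial transcripts, which are made inside the organelle and not in the nucleus, were also called. Of 14 members of the mitochondrial genome 8 were called high and 0 low (9 and 0 at an unadjusted p under 0.05; DESeq2 1 and 3). Their median input was 4322 CPM, and of all 110 members at 1000 CPM or more 38 were called high and 7 low. Without TMM factors 1 was called high and 2 low, and their median went from 0.37 to 0.03. mt-Nd2 (ENSMUSG00000064345, chromosome MT, 3914 to 4951, plus strand), a subunit of respiratory complex I, was at 17178, 19080.1, 14349.5 and 16543 CPM in the inputs and 28226, 25243, 20820.3 and 27102 in IP. The groups do not overlap (log2 0.59, SE 0.07, adjusted p = 1.3e-12; 0.25, adjusted p = 0.014 without TMM factors). mt-Nd4, another subunit, was at 16303, 18579, 14527 and 19099 and 25711, 25231, 19143 and 23839 CPM, higher in IP in each animal (log2 0.45, SE 0.07, adjusted p = 1.2e-06; 0.11, adjusted p = 0.26 without TMM factors). Nuclear copies of mitochondrial genes can share their reads.

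Transcripts low in IP were few. Of the 14, 9 carry a name, and 5 further rows could not be named, of which 2 lie inside the 7SL genes described below. Cps1, the first enzyme of the urea cycle, was at 1243, 994, 1912 and 2017 CPM in the inputs and 621, 609, 634 and 665 in IP. The IP libraries are within a narrow range and all below the lowest input (log2 -1.23, SE 0.25, adjusted p = 0.00045), and the call ended without replicate 3 or 4 (-1.09 and -1.07, adjusted p = 0.11 and 0.079). Pzp, an alpha-2-macroglobulin-like protease trap of plasma, was at 3974, 4983, 4871 and 4459 CPM in the inputs and 3229, 3085, 1843 and 2375 in IP. These groups do not overlap either (log2 -0.83, SE 0.15, adjusted p = 1e-05), and the call ended without replicate 3 (-0.62, adjusted p = 0.17). Alb, which encodes albumin, the most abundant plasma protein, was at 14026, 17488, 18102 and 18645 CPM and 11868, 12547, 8216 and 13426 in IP. Every IP library was below every input (log2 -0.58, SE 0.09, adjusted p = 1.8e-08), and the call ended without replicate 3 (-0.39, adjusted p = 0.17).

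Trf, which encodes transferrin, was at 9135, 9676, 9533 and 8343 CPM in the inputs and 8770.1, 9315, 5448 and 5291 in IP. Replicates 1 and 2 were nearly level and replicates 3 and 4 clearly lower (log2 -0.39, SE 0.11, adjusted p = 0.036), the same pairs of animals as for Hpx, and the call ended without replicate 1, 3 or 4 (-0.49, -0.24 and -0.28, adjusted p = 0.079, 0.39 and 0.13). Mat1a, the liver's S-adenosylmethionine synthetase, which makes the methyl donor used for m6A, was at -0.54, -0.70, -0.98 and -0.94 in the 4 animals (-0.79, adjusted p = 0.036). Fgl1, a fibrinogen-like hepatokine, was at -1.25, -0.41, -1.99 and -1.59 (-1.32, adjusted p = 0.036). The groups of both do not overlap. The call of Mat1a ended whichever of the 4 animals was left out (-0.86 to -0.71, adjusted p = 0.13 to 0.17), and that of Fgl1 whichever of the 4 animals was left out (-1.64 to -1.08, adjusted p = 0.057 to 0.17). Without TMM factors all 14 low members were further below 0 and still called.

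Rn7s1 and Rn7s2 encode 7SL, the RNA of the signal recognition particle, which is not polyadenylated by the mRNA pathway. Reads can be split between these near-identical copies, so they were also summed. The sum was 783, 1641, 2603 and 1508 CPM in the inputs and 505, 609.7, 604 and 364 in IP. It was lower in IP in each animal, with log2 ratios of -0.63, -1.43, -2.11 and -2.05. The calls of Rn7s2 (-1.57, adjusted p = 0.0071) and Rn7s1 (-1.55, adjusted p = 0.0098) ended without replicate 3 or 4 (-1.38 and -1.37, adjusted p = 0.17 and 0.13) for Rn7s2 and without replicate 3 or 4 (-1.34 and -1.35, adjusted p = 0.17 and 0.13) for Rn7s1. Of the other 7 members on the list of non-polyadenylated and nuclear RNAs 1 was called, Malat1, a nuclear long RNA known to carry m6A. Over the whole list 1 was called high and 2 low (1 and 2 at an unadjusted p under 0.05; DESeq2 1 and 4; without TMM factors 0 and 3). Malat1 was at 2694, 3249, 2981 and 3534 CPM in the inputs and 4389, 4344, 4743 and 4638 in IP. The groups do not overlap, in the opposite direction to 7SL (log2 0.55, SE 0.14, adjusted p = 0.024), and the call ended whichever of the 4 animals was left out (0.51 to 0.63, adjusted p = 0.052 to 0.17). Rn7sk, the RNA that holds the elongation factor P-TEFb inactive, was not called (-0.51, 0.09, -0.78 and -0.52; -0.43, adjusted p = 0.22).

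**Figure D3:**
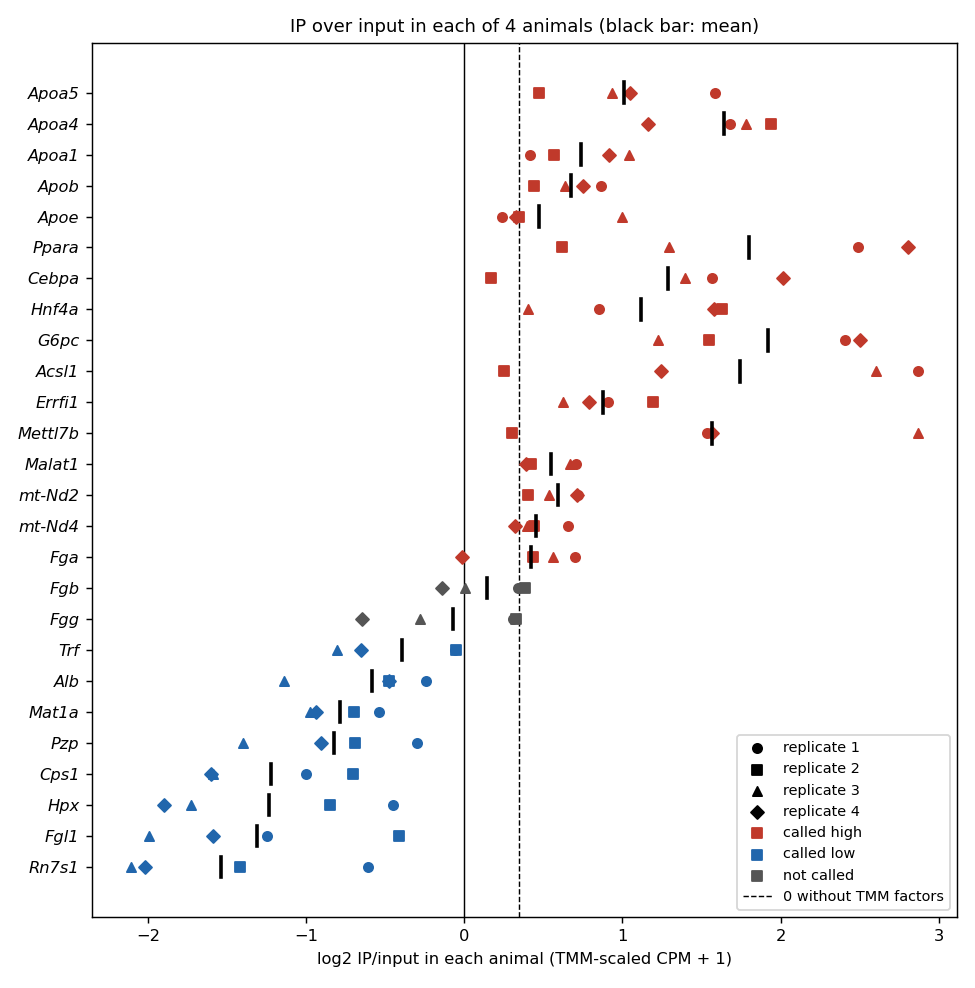
Log2 IP/input in each of the 4 hepatectomised flox animals (levels in TMM-scaled CPM plus 1) for 26 members named in the text; symbols mark the replicate and the dashed line marks where 0 would lie without TMM factors. Alb, Pzp, Cps1 and Hpx lie below both lines in each animal; red marks members called high, blue those called low, grey those not called, and black bars the mean of the 4 animals.

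Of 14 plasma carrier proteins 1 was called high and 2 low (1 and 2 at an unadjusted p under 0.05; DESeq2 0 and 5; without TMM factors 0 and 3). Ttr, the carrier of thyroxine and retinol-binding protein, was the high one (0.54, -0.11, 0.47 and 0.87; 0.44, adjusted p = 0.036), and its call ended whichever of the 4 animals was left out (0.33 to 0.60, adjusted p = 0.06 to 0.21) and without TMM factors (0.10, adjusted p = 0.72). Gc, the vitamin D-binding protein, was not called (0.14, -0.02, -0.49 and -1.0; -0.34, adjusted p = 0.28). Of 17 genes of the urea cycle and nitrogen 2 were called high and 1 low (3 and 1 at an unadjusted p under 0.05; DESeq2 2 and 3; without TMM factors 0 and 1). The high ones were Gpt2, a mitochondrial alanine transaminase (0.40, 1.31, 1.36 and 1.42; 1.13, adjusted p = 0.036), and Glul, glutamine synthetase of the pericentral hepatocytes (0.94, -0.18, 1.02 and 1.05; 0.72, adjusted p = 0.042). The call of Gpt2 ended without replicate 2, 3 or 4 (1.04, 1.06 and 1.06, adjusted p = 0.15, 0.17 and 0.13) and that of Glul whichever of the 4 animals was left out (0.62 to 0.98, adjusted p = 0.14 to 0.2).

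Of 23 genes of chaperones and the unfolded protein response 2 were called high and 0 low (2 and 0 at an unadjusted p under 0.05; DESeq2 2 and 1; without TMM factors 0 and 0). Calr, the lectin chaperone calreticulin, was at 2303, 2361, 1793 and 1513 CPM in the inputs and 3355, 3511, 3453 and 2879 in IP. All IP values exceed all inputs (log2 0.75, SE 0.17, adjusted p = 0.0022), and the call ended without replicate 3 (0.69, adjusted p = 0.17). Hspa5, the chaperone BiP, was at 0.25, 0.51, 1.07 and 0.18 in the 4 animals (0.50, adjusted p = 0.036), and its call ended whichever of the 4 animals was left out (0.33 to 0.64, adjusted p = 0.13 to 0.46). Some lists gave a single call, where 3.29% of all members were called high. Cyp1a2, a pericentral enzyme and the 1 called of 30 cytochromes P450, was at 0.32, 1.34, 1.54 and 0.86 in the 4 animals (1.02, adjusted p = 0.036). Its call ended without replicate 2, 3 or 4 (0.88, 0.85 and 1.10, adjusted p = 0.15, 0.17 and 0.13). Sephs2, a selenophosphate synthetase, was the 1 called of 19 peroxisome and redox enzymes. It was at 1.52, -0.15, 2.07 and 0.83 (1.07, adjusted p = 0.00018), so replicate 2 was lower in IP. The call of Sephs2 ended without replicate 3 (0.75, adjusted p = 0.17). Of the immediate early and growth response genes, which rise when hepatocytes leave quiescence, 2 of 21 were called high and 0 low (4 and 0 at an unadjusted p under 0.05; DESeq2 1 and 0; without TMM factors 0 and 0). Besides Zfp36 the other was Klf9, a Kruppel-like repressor (1.44, -0.06, 2.94 and -0.02; 1.04, adjusted p = 0.039), higher in IP in 2 of 4 animals, and its call ended whichever of the 4 animals was left out (0.45 to 1.47, adjusted p = 0.13 to 0.6).

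Several large groups gave no call in edgeR. Of 44 cytosolic ribosomal protein genes 0 were high and 0 low (1 and 0 at an unadjusted p under 0.05; DESeq2 1 and 0), with a median of 0.04. Rpl41, the smallest of them, had 0.73, 1.29, 0.78 and 0.52 in the 4 animals (0.83, adjusted p = 0.17). Of 18 proteasome and ubiquitin genes 0 were called (0 and 0 at an unadjusted p under 0.05; DESeq2 0 and 0). Of 19 complement genes 0 were called (4 and 2 at an unadjusted p under 0.05; DESeq2 2 and 8). Of 11 major urinary protein genes, near-identical copies between which reads can be split, 0 were called (0 and 0 at an unadjusted p under 0.05; DESeq2 0 and 1), with a median of -0.53. Of 8 m6A writers, erasers and readers 0 were called (0 and 0 at an unadjusted p under 0.05; DESeq2 1 and 0), with a median of 1.06. As the ratio of the group means this median was 0.26, and Zc3h4 and Ythdf2 each had 2 inputs at 0. Ythdf3, a cytoplasmic reader, had 0.22, 1.76, 1.79 and 0.38 (1.05, adjusted p = 0.25). Of 15 lysosome and autophagy genes 0 were called (1 and 0 at an unadjusted p under 0.05; DESeq2 0 and 2). Lamp2, a lysosomal membrane protein (-0.73, -1.60, -0.53 and -1.56; -1.11, adjusted p = 0.32), and Ctsl, a lysosomal protease (-1.37, -0.47, -0.57 and -0.73; -0.79, adjusted p = 0.33), were below 0 in 4 of 4 animals without passing the test. There were also 0 calls among 22 translation factors (1 and 0 at an unadjusted p under 0.05; DESeq2 0 and 3), 22 genes of bile acid synthesis and transport (2 and 0; DESeq2 1 and 2) and 20 of the actin cytoskeleton and matrix (0 and 0; DESeq2 0 and 0). The same holds for 20 nuclear-encoded genes of oxidative phosphorylation, 19 of the secretion machinery and 14 of the tricarboxylic acid cycle (each 1 and 0; DESeq2 each 1 and 0).

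**Figure D4:**
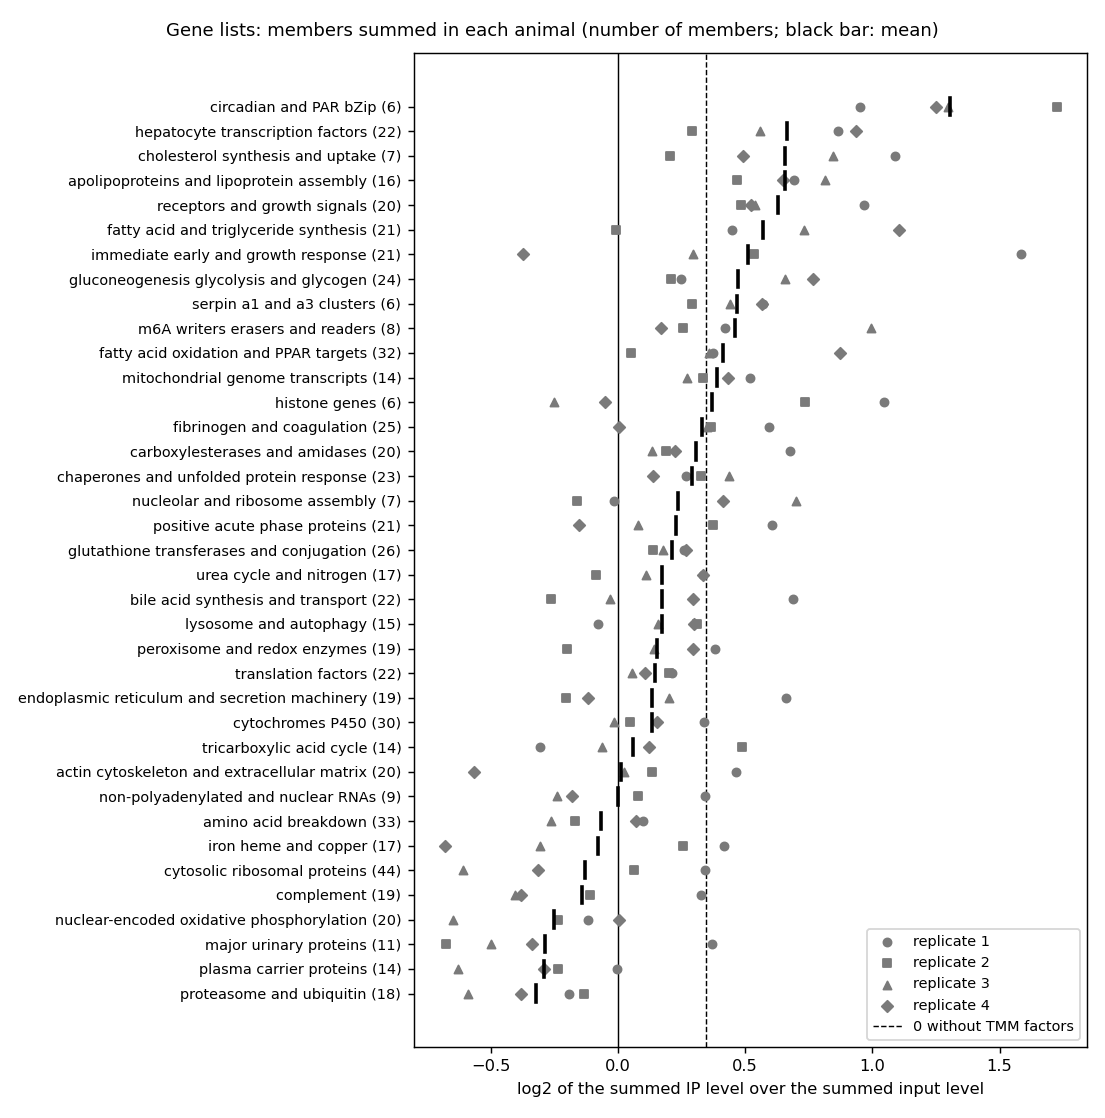
Log2 of the summed IP level over the summed input level of each gene list with at least 5 members, in each of the 4 hepatectomised flox animals; symbols mark the replicate. The sum of the apolipoprotein list lies above 0 in each animal, and that of the acute phase list is spread by replicate. Several other lists also lie above 0 in each animal, among them receptors, hepatocyte transcription factors, serpins and the mitochondrial genome. The circadian list has a higher mean (1.31) than the apolipoprotein list (0.65).

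The exon structure of the genes was compared as a description, with no test, over nuclear protein-coding members. Overlapping exons of a gene were merged into blocks. The last exon is the last such block, which need not be that of the transcript expressed. The 80 called high had a median last exon of 1919.5 bases and 6.5 exon blocks. For the 7 called low these were 247 bases and 16 blocks, and for the 2609 not called 1679 bases and 11 blocks. The 247 bases are those of Fgl1, whose longest internal block has 3029 bases. Most members not called are scarce, so the 84 genes at 1000 CPM or more were also divided into 4 sets of 21 by the length of the last exon. From the shortest set (median 214 bases) to the longest (median 2177 bases) the median log2 IP/input was -0.21, 0.31, 0.38 and 0.50. In the sham flox libraries the same sets had -0.25, 0.23, 0.49 and 0.23. By number of exon blocks, from the fewest to the most, it was 0.44, 0.30, 0.20 and -0.21. Spearman's rho was 0.38 for the last exon and -0.35 for the blocks over these 84 genes, and 0.10 and -0.05 over all 2696 members with these features. Over the 561 genes at 200 CPM or more it was 0.14 and -0.11. For the other features of the 84 it was 0.23 (longest exon), -0.11 (longest internal exon) and -0.11 (exonic length). From the shortest to the longest internal exon the medians of the 4 sets were 0.48, 0.15, 0.15 and 0.17. Genes of these libraries share depth and fragmentation and are not independent replicates.

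The same ratio was then taken in the other animals, with their own inputs. Of the 94 members called high, 85 were above 0 in sham flox liver (median 0.63), 39 in hepatectomised KO liver (-0.25) and 54 in sham KO liver (0.06). Over all fitted members the shares above 0 were 76.9%, 52.3% and 67.6% in these groups. Over the 210 members at 500 CPM or more the shares were 61.0%, 20.5% and 42.4%, beside 90.4%, 41.5% and 57.4% of the 94. Of the 94, sham flox called 18 high and 4 low (1.46% and 0.785% of all members tested there, 0.49% and 0.257% of all genes), hepatectomised KO 2 and 10 (0.39% and 2.59%, 0.129% and 0.795%) and sham KO 0 and 2 (0.0351% and 0.632%, 0.0196% and 0.176%). The median input of the 94 was 684 CPM, so the share at a like level is the nearer one. Of the 210 members at 500 CPM or more, these groups called 20 high and 19 low, 2 and 55, and 1 and 17. Of the 14 called low, 14 were below 0 in sham flox, 13 in hepatectomised KO and 14 in sham KO liver, with 4, 12 and 3 called low there. The medians of these 14 were -0.89, -1.77 and -0.59.

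Differences between groups were tested in a fit of all 32 libraries. Against sham flox 6 members had a higher IP/input after hepatectomy in flox liver and 0 a lower one (0.209% of members and 0.0419% of all genes tested; 55 higher and 95 lower at an unadjusted p under 0.05). Serpina3n was the 1 of the 6 that was called with any 1 hepatectomised flox animal left out. Its log2 IP/input was 0.30 after hepatectomy and -1.47 in sham flox liver (difference 1.75, SE 0.21, adjusted p = 4.6e-13). Lrg1 (0.51 and -0.81; difference 1.30, SE 0.29, adjusted p = 0.035) and Mki67, the proliferation antigen Ki-67 (0.97 and -3.38; difference 4.33, SE 1.02, adjusted p = 0.049), lost the call whichever of the 4 animals was left out. Hadh (8.20, SE 1.85, adjusted p = 0.035) kept it only without replicate 3. The other two, named after their values were seen, were Mt1, a metallothionein (difference 1.54), and Eppk1, an epithelial plakin (2.36), and each was called in 2 of the 4 fits without 1 animal.

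Against hepatectomised KO 55 members were higher in hepatectomised flox liver and 0 lower (1.92% of members and 0.398% of all genes tested; 219 higher and 13 lower at an unadjusted p under 0.05). The median difference of all members was 0.77, and 0.21 without TMM factors, where 26 were called higher and 1 lower. The differences below are to be read against that shift. Over the 210 members at 500 CPM or more the median log2 IP/input in hepatectomised KO liver was -0.74. In hepatectomised flox liver it was 0.37 at 500 to 1000 CPM and 0.29 at 1000 CPM or more, so the shift was larger there. Calls of 25 of the 55 were kept with any 1 hepatectomised flox animal left out. Here and below only hepatectomised flox animals were left out, and no KO animal was. These hepatectomised flox libraries are also those of the main comparison, and the values are given side by side. Of the hepatectomised KO IP libraries, that of replicate 4 held 7133988 counts and 6676 genes with at least 10 counts. The others held 16506438 to 19509536 counts and 10408 to 13200 such genes. The part of that library in the differences was not tested.

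Egfr was at log2 0.50 in hepatectomised flox, -2.14 in hepatectomised KO, 0.50 in sham flox and -0.66 in sham KO liver (difference from hepatectomised KO 2.66, SE 0.31, adjusted p = 5e-14). Its inhibitor Errfi1 was at 0.88, -0.86, 0.62 and 0.01 (1.75, SE 0.28, adjusted p = 2.4e-07). Both kept the call with any 1 hepatectomised flox animal left out. Cyp2e1, the ethanol-inducible cytochrome, was at 0.43, -2.36, 0.75 and 0.05 (2.81, SE 0.33, adjusted p = 5e-14), although its ratio in hepatectomised flox liver alone had not passed the test. Pck1 (1.78, SE 0.32, adjusted p = 2e-05) also kept its call with any 1 animal left out, as did Sephs2 (2.74, SE 0.44, adjusted p = 7.6e-07) and Mup3, a major urinary protein (3.15, SE 0.44, adjusted p = 2.4e-09). Without TMM factors Pck1 remained called.

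Among secreted proteins of coagulation and the acute phase, Fgb was at 0.15 in hepatectomised flox, -1.41 in hepatectomised KO, -0.38 in sham flox and -0.54 in sham KO liver (difference from hepatectomised KO 1.57, SE 0.16, adjusted p = 1.6e-18). Fgg was at -0.07, -1.45, -0.59 and -1.0 (1.40, SE 0.30, adjusted p = 0.013), with the call lost without replicate 3 (adjusted p = 0.14). Fga, the chain that was high over input, was at 0.42, -1.53, -0.53 and -0.62, and its difference did not pass the test (1.97, SE 0.38, adjusted p = 0.055). Hrg (1.86, SE 0.29, adjusted p = 2e-07), Saa4 (3.13, SE 0.48, adjusted p = 9.1e-08), Serpina1d (1.84, SE 0.33, adjusted p = 2.1e-05) and Serpina3n (2.07, SE 0.20, adjusted p = 8e-20) differed and kept the call with any 1 animal left out. Apoa1 (1.68, SE 0.31, adjusted p = 0.044), Serpina3k (2.20, SE 0.37, adjusted p = 0.023) and Cyp1a2 (2.19, SE 0.56, adjusted p = 0.026) lost it whichever of the 4 animals was left out. Acsl1 (2.89, SE 0.61, adjusted p = 0.0011) lost it without replicate 1 (adjusted p = 0.077). Apoa1, Serpina3k and Cyp1a2 also missed the threshold without TMM factors (adjusted p = 0.46, 0.18 and 0.46).

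**Figure D5:**
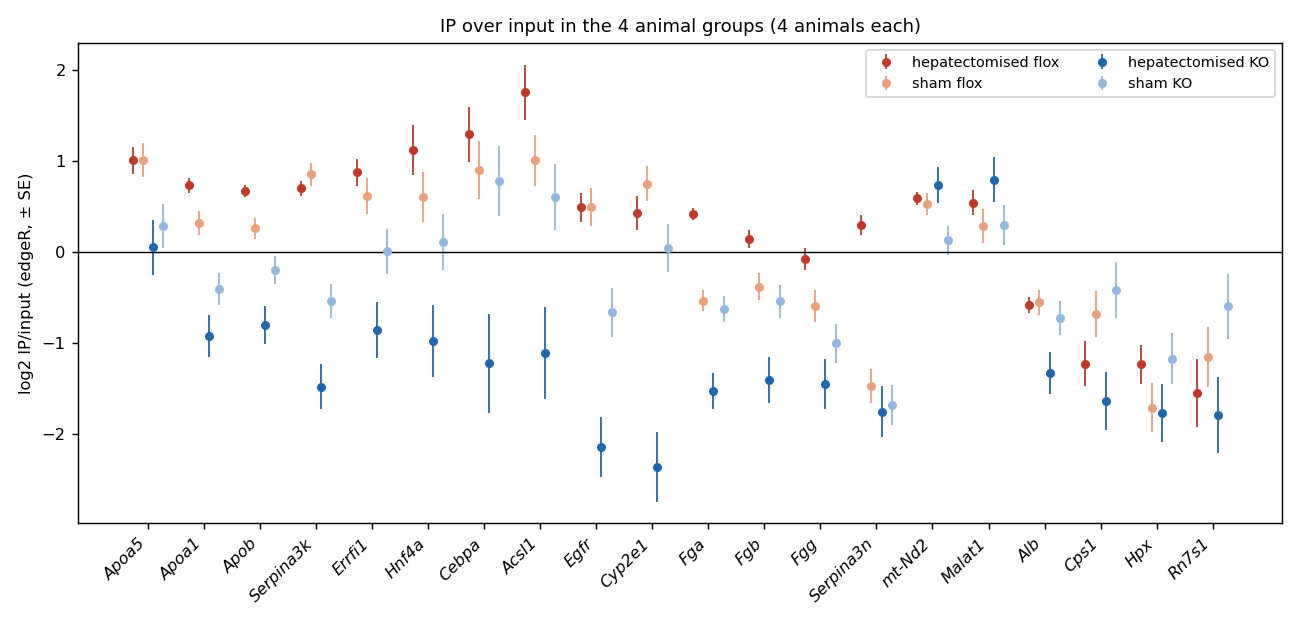
Log2 IP/input with its SE in hepatectomised flox, sham flox, hepatectomised KO and sham KO liver (4 animals each, fitted on each group's own libraries) for 20 members. Egfr, Errfi1, Cyp2e1 and Fgb lie lower in hepatectomised KO than in hepatectomised flox liver, and Hpx lies below 0 in all 4 groups.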

How the data were processed

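Expected counts per gene of input and m6A-IP libraries were deposited by the authors as 1 table. The submitters' processing notes name fastp and STAR, without versions. The counting program is not given, and neither is the genome build. Input RNA went into a stranded mRNA kit and IP RNA was fragmented, per the labels' protocols. Symbols were assigned by position against RefSeq GRCm38.p6 (names only): 35744 of 55421 genes, holding 94.7% of counts, and 748 after a shift of 1000000 bases. The deposited estimated counts were rounded (1.33 to 8.22% were not whole) and tested in edgeR 4.0.16 (R 4.3.3) by the quasi-likelihood test with TMM factors, filterByExpr (minimum count 10), the animal as a block and Benjamini-Hochberg adjustment over 8951 genes. Each label gives input and IP of 1 animal, which sets the pairing, although deviations of own pairs correlated only at -0.03 to 0.13 over 618 members, and 2 of 4 inputs matched their own IP best. Per-animal log2 values used 1 CPM as pseudocount. Total counts set the depth, and the floor of 3 counts covers counting error only. Named genes were up to 12 called members each way with the largest value, the same sign in 4 animals and at least 10 counts in each of 8 libraries, up to 4 members of each list by smallest p, and Fga, Fgb, Fgg and Mettl14; some that the rule selects are not reported here. Members, lists and alternatives were chosen with earlier results of these data known. On simulated data for this comparison, on 2864 members, the test recovered 83.3% of 6 members changed 2-fold at 1000 CPM or more and 5.2% of 97 at all levels, with 14 of 2664 unchanged members called. The simulated spread was set by level and library type alone, with no spread particular to a gene and no animal effect. That is close to what the fit over all genes assumes, so the simulation does not check that assumption or the calls. Limma 3.58.1 and DESeq2 1.42.0 were alternatives.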

Additional observations from a re-analysis of the deposited data

Results flagged for a closer look

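In 7 of the 73 members named, 1 of the 4 hepatectomised flox animals stood apart from the others by Dixon's criterion, which chance meets in about 1 in 20 groups. The highest animal stood apart in log2 IP/input for Apoe (0.99), Ghr (3.92), Egfr (1.30) and Slc27a2 (1.78). The lowest stood apart for Hadh (-1.41), Gpt2 (0.40) and Glul (-0.18).

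The IP/input of Serpina3n (1.75), Lrg1 (1.30), Hadh (8.20) and Mki67 (4.33) was higher in hepatectomised than in sham flox liver by the test of the difference in edgeR, the log2 difference being given in parentheses. The same test found higher values in hepatectomised flox than in hepatectomised KO liver for Acsl1 (2.89), Apoa1 (1.68), Serpina3k (2.20), Serpina1d (1.84), Serpina3n (2.07), Serpina1e (4.75), Saa4 (3.13), Ttr (1.07), Fgb (1.57), Fgg (1.40), Hrg (1.86), Cebpa (2.54), Hnf4a (2.12), Hadh (8.88), Scd1 (1.28), Pck1 (1.78), Errfi1 (1.75), Egfr (2.66), Glul (2.13), Sephs2 (2.74), Cyp1a2 (2.19), Cyp2e1 (2.81), Slc27a2 (2.52), Mup3 (3.15) and Mup11 (7.09). Against hepatectomised KO the median difference over all members was 0.77, so these values are not centred on 0. The medians of these 2 groups lay further apart in members at 500 CPM or more. Against sham flox the call of Serpina3n was kept with any 1 hepatectomised flox animal left out. That of Hadh ended without replicate 1, 2 or 4, and those of Lrg1 and Mki67 ended in all 4 such fits. No animal of another group was left out, here or below. Against hepatectomised KO the calls of Apoa1, Serpina3k and Cyp1a2 ended in all 4. Those of Glul, Cebpa and Scd1 ended without replicate 1, 3 or 4, those of Hadh and Ttr without replicate 1 or 4, and that of Hnf4a without replicate 2 or 4. Those of Acsl1 and Serpina1e ended without replicate 1, that of Fgg without replicate 3 and that of Slc27a2 without replicate 4. Without TMM factors the differences of Apoa1, Serpina3k, Cyp1a2, Glul, Cebpa, Scd1, Ttr, Hnf4a and Slc27a2 from hepatectomised KO were not called in edgeR (adjusted p = 0.46, 0.18, 0.46, 0.56, 0.41, 0.8, 0.86, 0.38 and 0.18). No explanation of these differences was tested.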

How the results depend on the processing

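The 94 high and 14 low members became 28 and 34 without TMM factors, 42 and 9 without a filter on low counts, 0 and 0 with only the members fitted, 44 and 9 without the replicate block, 20 and 4 with legacy = FALSE in edgeR, 324 and 115 in DESeq2 and 7 and 3 with all 32 libraries. Without 1 replicate they ranged from 16 to 37 and from 1 to 10. In alternatives chosen after seeing the data, limma on the log2 ratios of all genes called 86 and 38, limma on the members 29 and 23 and limma voom 61 and 19, and at 1000 CPM or more 38 and 7 were left. Upper-quartile factors gave 108 and 14 and TMM factors on the members 100 and 15. The median log2 IP/input of members, 0.71, was 0.37 without TMM factors, -0.0091 without the block, 0.24 with legacy = FALSE, 0.37 in DESeq2, 0.56 to 0.68 without 1 replicate, 1.06 with limma on all genes, 1.06 on the members and 0.55 with voom. It was 0.51 with membership by median CPM, 1.12 by sham flox inputs, 0.29 at 200 CPM or more and 0.29 at 1000. The 6 members different from sham flox were 3 without the block and 1 to 4 without 1 replicate, and the 55 different from hepatectomised KO were 27 without TMM factors, 33 with only the members fitted, 46 without the block and 28 to 42 without 1 replicate. Serpina3n log2 IP/input turned to -0.047 without TMM factors and to -0.044 in DESeq2. Among the values of the 73 named members under these alternatives 702 kept direction and side of the threshold, 438 lost the call, 17 gained it, 9 moved and 2 reversed. The causes of these changes were not tested. Of the members 1154 had at least 1 input at 0 and 36 at least 1 IP library at 0. A count of 3 is at most 0.267 CPM in an input, and the cause of these zeros was not tested.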
